A study of Mus musculus with 6 samples.

Results

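The rows described here are the genes of voltage-gated sodium and calcium channels and of potassium channels in Neuro2a, a mouse neuroblastoma line often used as a neuron-like model. They were taken from the deposited table by symbol (Kcn followed by a letter, Scn with a number and a or b, or Cacn with a, b or g) and by a summed raw count of at least 60 over the 6 libraries. Of 24421 gene rows, 137 had such a symbol and 56 reached the count. Of these, 53 name channel subunits and 3 do not: Kcnq1ot1 and Kcnmb4os2 are antisense transcripts and Kcnrg encodes a soluble protein. The cells, wild type per the labels, carried for 48 h an adenovirus with a short hairpin against Fam172a (ADV-shFam172a, 3 libraries) or a control hairpin (ADV-shCtrl, 3 libraries), and total RNA was sequenced in read pairs. Both groups therefore received virus and a hairpin, and no group without virus was analysed here. Whether the libraries of a group came from separate infections is not given, so p-values measure only the spread between these libraries, which may be technical. The RNA is from whole cultures, in which fewer cells of a type and less RNA per cell cannot be told apart.

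Channel proteins of these families set the electrical behaviour of neurons. Sodium channels carry the upstroke of the action potential, potassium channels return the membrane to rest and hold it there, and calcium channels couple depolarization to secretion and gene expression. Each is built around a pore subunit, and auxiliary subunits alter its traffic, inactivation or voltage range. Neuroblastoma cells come from the sympathoadrenal lineage and are known for ERG-type potassium currents and for voltage-gated sodium and calcium currents.

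Gene counts summed to 21690467 to 23409319 in the ADV-shFam172a libraries and to 11250312 to 12820531 in the ADV-shCtrl libraries, so low channels were measured less precisely in ADV-shCtrl. Members took 0.140% to 0.142% of gene counts in ADV-shFam172a and 0.131% to 0.136% in ADV-shCtrl. The targeted gene Fam172a had 9.22, 8.28 and 9.22 CPM (counts scaled to library size with TMM factors) in ADV-shFam172a libraries, against 18.6, 19.3 and 19.5 CPM in ADV-shCtrl libraries, which gave -1.10 ± 0.092 on the log2 scale (SE; adjusted p = 2.4e-12). ADV-shFam172a replicate 3 stood apart in read pairs of too low alignment quality, at 4.46% against 6.65% and 7.12% in replicates 1 and 2; without it 12 members were called higher and 4 lower. Of 16 markers of the neural identity of the line, 0 were without counts, but Nefl and Nefm had at most 2 in any library. The summed level of the 16 was 2951 to 3005 CPM in ADV-shFam172a and 2886 to 2931 CPM in ADV-shCtrl. Of the 14 tested, 7 were called higher and 2 lower, 64.3% in all, against 36.1% of all genes tested. Most of the 14 were above 20 CPM, and of all genes at 20 CPM or more 47.4% were called. The sums hide larger moves of single markers. Th, called higher, averaged 18.7 CPM in ADV-shFam172a and 9.28 CPM in ADV-shCtrl. Elavl4, called lower, averaged 214 and 303 CPM in the same order. Among markers of other cells, Aqp4, Mag and Olig2 (glia), Myh6, Ckm and Myh4 (muscle) and Ptprc, Itgam, Cx3cr1 and C1qa (macrophages) had 0 counts.

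Of 14 groups of subunits by role, 12 held at least 1 member, and the highest gene of a role made up 43.8% to 82.2% of its summed level per length. Levels between genes are compared per length, as FPKM (CPM per kilobase of merged GENCODE exons). Because the count total chose the members, these levels are a description. Kcnh2, the ERG channel of the rapid delayed rectifier current, was the highest per length at 19.6 ± 0.141 FPKM in ADV-shFam172a and 17.3 ± 0.392 FPKM in ADV-shCtrl (SD, n = 3 each, as throughout). It was followed by Cacng7 at 16.7 ± 0.827 and 15.9 ± 0.866 FPKM in the same order of groups, and by Cacng3 at 13.5 ± 0.354 and 10.8 ± 1.59 FPKM. These are gamma subunits of the kind best known for carrying AMPA receptors to synapses. The spreads of Kcnh2 and Cacng7 did not touch in either group. The median member stood at 1.49 FPKM, below the 7.11 FPKM of all 12729 tested genes with a length, and 30 of 56 members reached 1 FPKM.

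**Figure D1:**
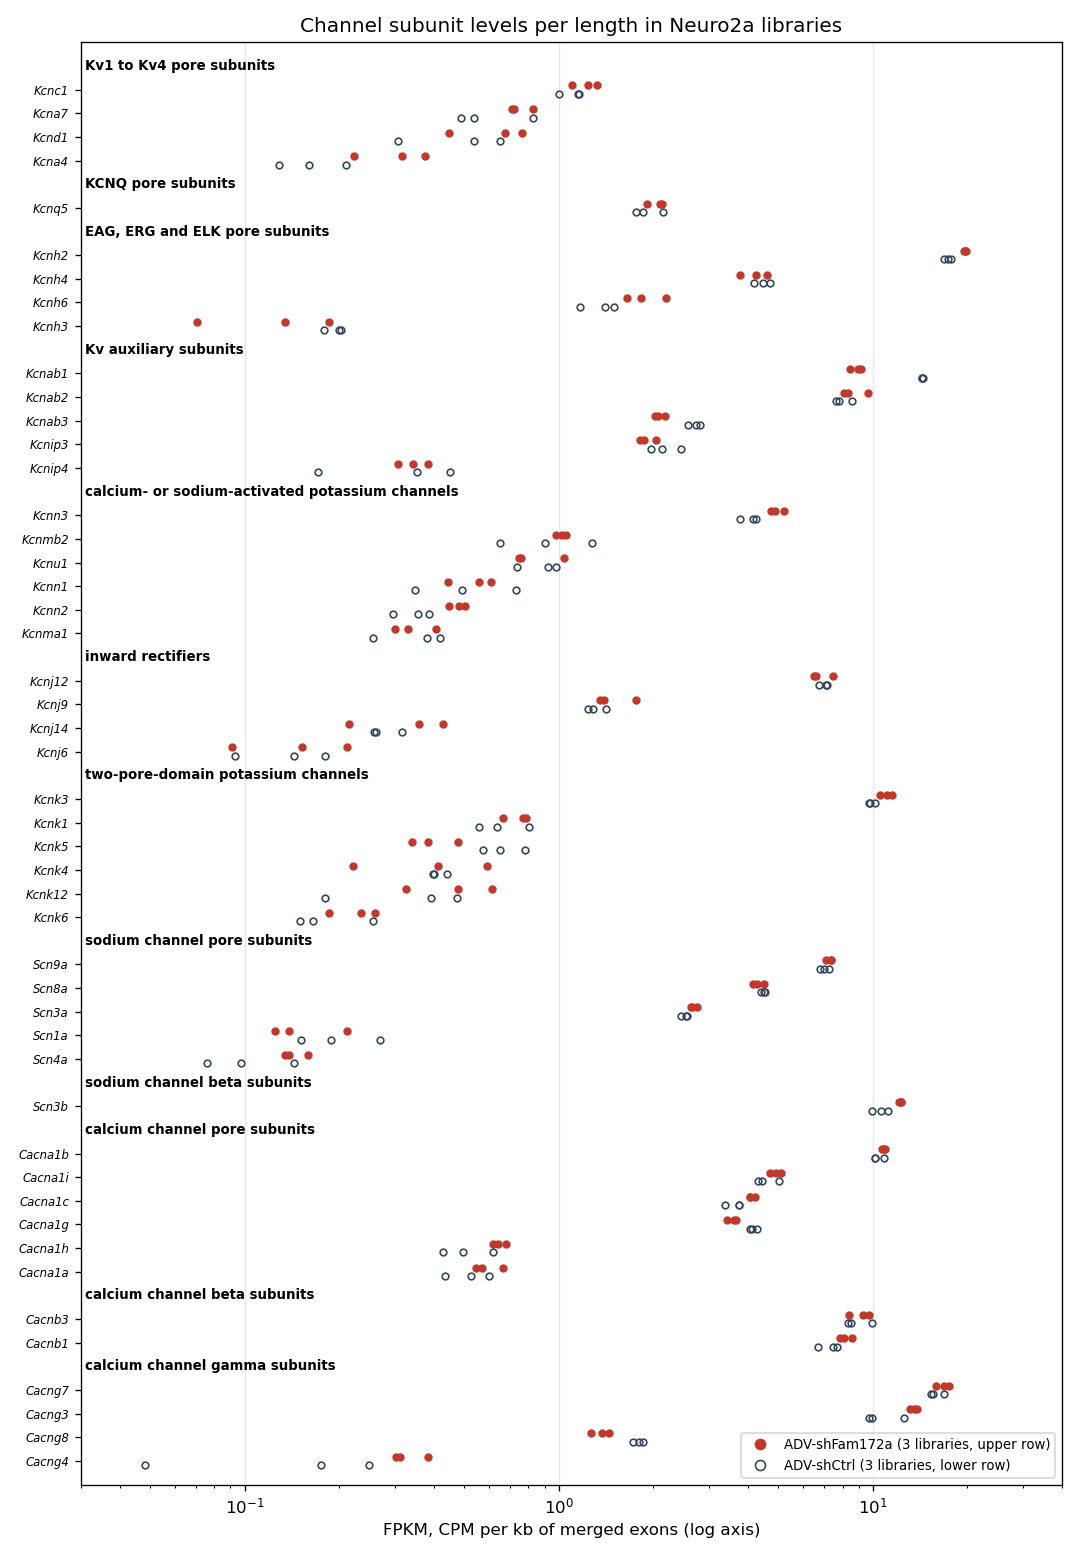
Level of 48 of the 53 channel subunit members in every library, in FPKM on a log axis, grouped by role; filled points are ADV-shFam172a and open points ADV-shCtrl, 3 libraries each. Kcnh2 lies furthest right, and the groups separate clearly for Kcnab1. Over all 53 subunit members, including those not plotted, the highest gene of each role made up 43.8% to 82.2% of the role's sum.

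Many genes of these families had few or no counts. Of the 137 symbols, 33 had 0 counts in all libraries, so that a level of at most 0.0291 CPM is compatible with counting error, and 48 had between 1 and 59 counts. Among pore subunits of the Kv1 to Kv4 families, which make delayed rectifier and A-type currents, 10 of 17 were at 0, among them Kcna1, Kcna2, Kcna3, Kcna5 and Kcna6. None of the 10 silent Kv subunits, which alter other Kv pores without forming a channel of their own, became a member. The alpha2delta subunits of calcium channels, which bring the pore to the surface, had 71 counts over all 4 genes and 6 libraries, beside 29616 counts for the 10 calcium channel pore genes. Kcnq3, an M-current subunit, had 7 counts. Just inside the count threshold were Kcnmb4os2 with 72 summed counts and Kcnrg with 85, and just outside were Kcne1 with 52 and Kcnj13 with 39. The symbol pattern also leaves out Scn2a1, a sodium channel pore subunit with 3057 summed counts, chosen after its values were seen.

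All 56 members passed the filter on low counts, 50 of them with every library above its limit. Cacng4, Kcnrg, Scn4a and Kcnk12 were above it in every ADV-shFam172a library but not in every ADV-shCtrl library, so their presence in the test rested on ADV-shFam172a. By edgeR's quasi-likelihood test with Benjamini-Hochberg adjustment over all 12820 genes tested, 14 members rose and 4 fell at an adjusted p under 0.05. Over all genes tested, 17.5% rose and 18.6% fell, 36.1% in all, so the share of members called (32.1%) was near the background and is no result about channels. The median log2 fold change, ADV-shFam172a over ADV-shCtrl, was 0.12 for members and -0.00030 for all genes. An offset for exon length and GC content gave 11 higher and 6 lower, and without ADV-shCtrl replicate 2 the higher members numbered 9. Leaving out ADV-shCtrl replicate 1 or replicate 3 left 2 lower members each. DESeq2's Wald test called 10 higher and 2 lower, without Cacng4, Kcna4, Cacnb1, Kcnk3, Kcnab3 and Kcnk5 (adjusted p between 0.067 and 0.12). Thinning every library to the smallest ended the calls of Cacng4, Kcna4, Cacnb1, Kcnab3, Kcnk5 and Cacna1g (adjusted p between 0.053 and 0.37). Over all genes, 4472 were called with the offset, 3561 by DESeq2 and 3777 after thinning, where the main fit called 4627.

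Of 20 members at 20 CPM or more, a split made after the values were seen, 10 rose and 2 fell. With the length and GC offset the same 20 gave 7 higher and 3 lower, since Cacna1c, Cacnb1 and Kcnk3 were no longer called and Scn8a was called lower. Of 7908 genes at that level, without the offset, 22.1% rose and 25.4% fell. The libraries of the groups did not overlap for 22 members, 17 higher and 5 lower, where 46.0% of all genes did not overlap. Kcnab1 was called lower under all 15 alternative settings, including a test against a minimum fold change.

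**Figure D2:**
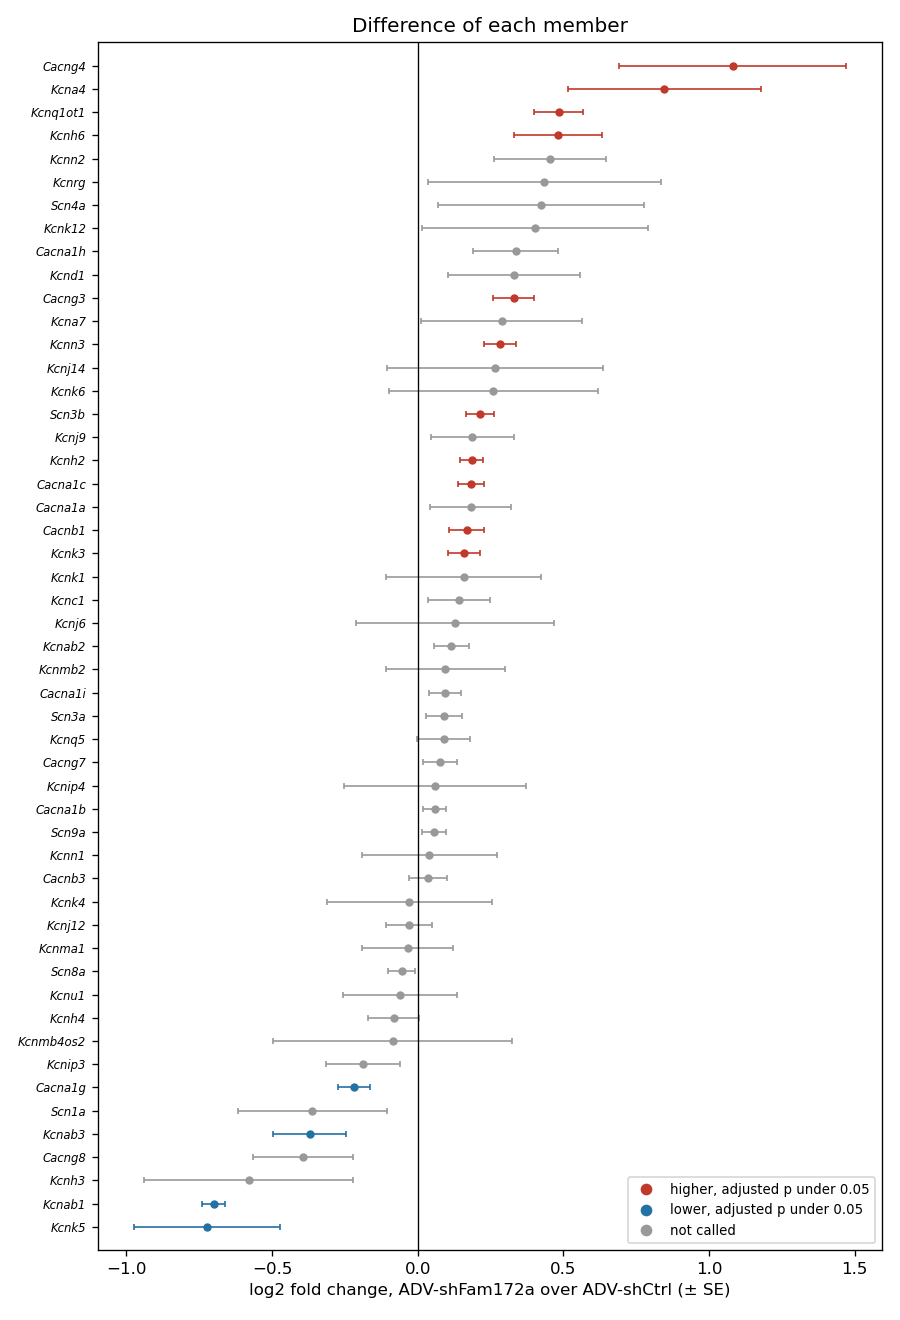
Log2 fold change of 51 of the 56 members, ADV-shFam172a over ADV-shCtrl, with bars of 1 SE (the fold change divided by the square root of its F statistic). Of these, the 11 called higher and 4 called lower are coloured; 36 lie above 0 and 15 below, and bars widen for the low members.

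The auxiliary subunit Kcnab1 had the smallest adjusted p of any member. Kcnab1 encodes a cytoplasmic beta subunit with the fold of an aldo-keto reductase, which speeds inactivation of Kv1 pores. It had 77.2, 72.4 and 78.8 CPM in ADV-shFam172a libraries, against 123, 123 and 124 CPM in ADV-shCtrl libraries. Every ADV-shFam172a library was far below every ADV-shCtrl library. The log2 fold change was -0.70 ± 0.040 (SE, adjusted p = 3.6e-17), a fitted level 38.4% lower, and it stayed between -0.72 and -0.66 whichever library was left out. In FPKM, Kcnab1 stood at 8.86 ± 0.386 in ADV-shFam172a and 14.4 ± 0.0441 in ADV-shCtrl, below Cacng3 in ADV-shFam172a and above it in ADV-shCtrl.

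Kcnab1 (ENSMUSG00000027827) lies on chromosome 3 of GRCm38, on the plus strand, and its GENCODE span runs from 65109384 to 65378223; RefSeq lists 3 start sites, of which A and B lie before that span. Which of their transcripts the deposited gene count includes is not given. The sequence from 250 bases before to 50 after each start is shown (RefSeq, GRCm38.p6) because a gene count does not separate the starts. Capitals mark ACGTG on either strand, the core letters of the HIF binding sequence, which also lie within the E-box CACGTG.
Kcnab1 start A, chr3:64948962-64949261, plus strand: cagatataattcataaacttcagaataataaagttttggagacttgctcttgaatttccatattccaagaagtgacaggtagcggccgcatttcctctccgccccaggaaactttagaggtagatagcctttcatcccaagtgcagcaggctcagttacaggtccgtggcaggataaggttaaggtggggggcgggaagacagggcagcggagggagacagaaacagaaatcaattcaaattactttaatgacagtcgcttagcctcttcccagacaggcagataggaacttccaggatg
Kcnab1 start B, chr3:65108764-65109063, plus strand: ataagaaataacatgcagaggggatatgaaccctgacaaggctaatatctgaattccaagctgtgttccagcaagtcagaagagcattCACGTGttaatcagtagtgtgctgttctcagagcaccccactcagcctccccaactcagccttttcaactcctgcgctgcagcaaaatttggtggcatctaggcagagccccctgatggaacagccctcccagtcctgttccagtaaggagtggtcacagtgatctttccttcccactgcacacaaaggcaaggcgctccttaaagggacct
Kcnab1 start C, chr3:65187853-65188152, plus strand: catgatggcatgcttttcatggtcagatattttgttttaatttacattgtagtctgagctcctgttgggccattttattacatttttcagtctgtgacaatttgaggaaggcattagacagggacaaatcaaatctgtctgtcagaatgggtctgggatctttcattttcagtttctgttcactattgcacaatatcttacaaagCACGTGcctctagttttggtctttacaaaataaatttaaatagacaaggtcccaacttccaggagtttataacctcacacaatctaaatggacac
Starts B and C each hold the E-box once, which both strands read, and start A holds none.

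Of the other 4 Kv auxiliary subunits, 1 fell and 0 rose, where 18.6% of all genes tested fell and 17.5% rose. Kcnab3, a further beta subunit, had 5.93, 6.22 and 5.80 CPM in ADV-shFam172a libraries, against 7.80, 7.40 and 8.06 CPM in ADV-shCtrl libraries. The groups did not overlap, and the log2 fold change was -0.37 ± 0.13 (adjusted p = 0.019). The call was lost without ADV-shCtrl replicate 1 (adjusted p = 0.053) or replicate 3 (adjusted p = 0.074). Kcnab2, the beta subunit closest to Kcnab1 in level per length, averaged 48.4 ± 4.58 CPM in ADV-shFam172a and 44.7 ± 2.93 CPM in ADV-shCtrl (0.12 ± 0.060, adjusted p = 0.14), and was called higher without ADV-shCtrl replicate 1 (adjusted p = 0.042) or ADV-shFam172a replicate 2 (adjusted p = 0.037). The calcium-binding partners of Kv4 pores, Kcnip3 (-0.19 ± 0.13, adjusted p = 0.26) and Kcnip4 (0.06 ± 0.31, adjusted p = 0.90), did not pass.

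Among the Kv pores, Kcnc1, a fast-gating channel, stood at 11.5 ± 1.07 and 10.4 ± 0.875 CPM in ADV-shFam172a and ADV-shCtrl, and did not pass (0.14 ± 0.11, adjusted p = 0.31).

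Kcna4, an A-type pore, rested on few reads. Its counts were 39, 25 and 34 in ADV-shFam172a libraries, against 9, 13 and 7 in the shallower ADV-shCtrl libraries. Scaled to library size, Kcna4 stood at 1.81, 1.07 and 1.53 CPM in ADV-shFam172a and at 0.772, 1.01 and 0.620 CPM in ADV-shCtrl, so the nearest libraries of the groups almost met. The log2 fold change was 0.85 ± 0.33 (adjusted p = 0.042). The call was lost on leaving out any of ADV-shCtrl replicates 1, 2 or 3 (adjusted p = 0.11, 0.052 and 0.16) or ADV-shFam172a replicates 1 or 3 (adjusted p = 0.16 and 0.072). Kcna7 (0.29 ± 0.28, adjusted p = 0.45) and Kcnd1 (0.33 ± 0.23, adjusted p = 0.27) did not pass.

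**Figure D3:**
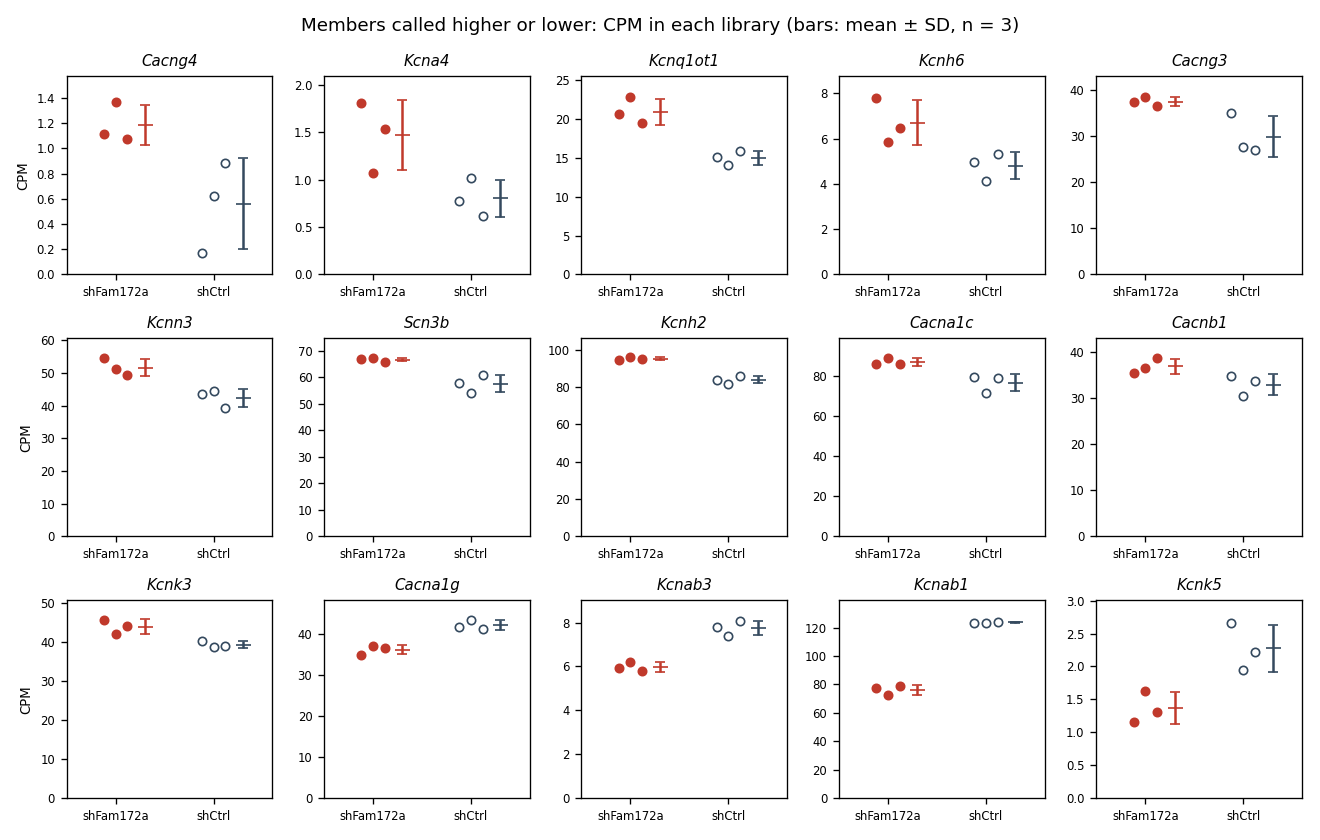
CPM in each library of 15 of the 18 members called at an adjusted p under 0.05, with mean ± SD beside the points (n = 3) and every axis starting at 0. The groups do not overlap in any panel; the gap is wide for Kcnab1 and narrow for Kcna4, Cacnb1 and Kcnk3.

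The ERG genes Kcnh2 and Kcnh6 rose, 2 of the 4 EAG, ERG and ELK pore members, where 17.5% of all genes tested rose. The median log2 fold change of the 4 was 0.051. Kcnq5, a KCNQ pore, averaged 15.7 ± 0.959 CPM in ADV-shFam172a and 14.8 ± 1.56 CPM in ADV-shCtrl and did not pass (0.09 ± 0.091, adjusted p = 0.47).

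Kcnh2 had 94.5, 95.9 and 95.2 CPM in ADV-shFam172a libraries, against 83.9, 81.9 and 85.7 CPM in ADV-shCtrl libraries. The groups did not overlap, and the difference was small and tight at 0.19 ± 0.040 (adjusted p = 3.1e-04), or 0.11 (adjusted p = 0.023) with the length and GC offset. Kcnh6, a second ERG gene, had 7.79, 5.83 and 6.47 CPM in ADV-shFam172a libraries, against 4.97, 4.13 and 5.32 CPM in ADV-shCtrl libraries. Its log2 fold change was 0.48 ± 0.15 (adjusted p = 0.010), and the call was lost without ADV-shCtrl replicate 2 (adjusted p = 0.097) or ADV-shFam172a replicate 1 (adjusted p = 0.077). The ELK genes Kcnh4 (-0.08 ± 0.087, adjusted p = 0.49) and Kcnh3 (-0.58 ± 0.36, adjusted p = 0.21) did not pass, and Kcnh3 had 9 to 23 counts per library.

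Of the calcium- or sodium-activated potassium channels, Kcnn3 alone was both abundant and called. Kcnn3 is a small-conductance channel that opens on calcium entry and contributes to the afterhyperpolarization that follows spikes. It had 54.4, 51.1 and 49.4 CPM in ADV-shFam172a libraries, against 43.5, 44.3 and 39.3 CPM in ADV-shCtrl libraries (0.28 ± 0.055, adjusted p = 7.9e-05). The groups did not overlap. Kcnn2, of the same kind, was at 3.57 ± 0.206 CPM in ADV-shFam172a and 2.58 ± 0.340 CPM in ADV-shCtrl; its libraries did not overlap either, but it missed the threshold (0.45 ± 0.19, adjusted p = 0.062). The large-conductance pore Kcnma1 (-0.03 ± 0.16, adjusted p = 0.89) and its auxiliary subunit Kcnmb2 (0.10 ± 0.20, adjusted p = 0.75) did not pass, nor did Kcnn1. Kcnu1, put in this group by its symbol and not for activation by calcium or sodium, did not pass either.

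Of the 4 inward rectifiers, which hold the resting potential, 0 were called by edgeR, 0 by DESeq2 and 0 at an unadjusted p under 0.05 (p between 0.20 and 0.71). Kcnj12 led them with 18.8 ± 1.41 CPM in ADV-shFam172a and 19.2 ± 0.604 CPM in ADV-shCtrl (-0.03 ± 0.080, adjusted p = 0.80). The G-protein-gated subunits Kcnj9 (0.19 ± 0.14, adjusted p = 0.32) and Kcnj6 (0.13 ± 0.34, adjusted p = 0.80) were present at 6.44 and 1.16 mean CPM in ADV-shFam172a, against 5.63 and 1.06 mean CPM in ADV-shCtrl. Kcnj3, the subunit these usually join, had 2 counts in all 6 libraries together.

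Of the 6 tandem-pore leak channels, 1 rose and 1 fell, 33.3% in all, which is near the 36.1% of all genes tested. Kcnk3, an acid-sensitive leak channel and by far the most abundant of the 6, had 45.6, 42.0 and 44.2 CPM in ADV-shFam172a libraries, against 40.4, 38.6 and 38.9 CPM in ADV-shCtrl libraries. It rose by 0.16 ± 0.055 (adjusted p = 0.020), a call lost with the length and GC offset (adjusted p = 0.088) and without ADV-shCtrl replicate 2 (adjusted p = 0.083), ADV-shCtrl replicate 3 (adjusted p = 0.060) or ADV-shFam172a replicate 1 (adjusted p = 0.082). Kcnk5, a relative that opens in alkaline medium, fell to 1.16, 1.63 and 1.30 CPM in ADV-shFam172a libraries, against 2.66, 1.95 and 2.21 CPM in ADV-shCtrl libraries. With 25 to 38 counts per library its log2 fold change was -0.72 ± 0.25 (adjusted p = 0.022), and it lost the call without ADV-shCtrl replicate 1 (adjusted p = 0.13), ADV-shCtrl replicate 3 (adjusted p = 0.051) or ADV-shFam172a replicate 1 (adjusted p = 0.078). Kcnk1, Kcnk4, Kcnk6 and Kcnk12 were each below 2 mean CPM in both groups and did not pass.

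Of 5 sodium channel pores described here, 0 were called by edgeR, 0 by DESeq2 and 0 at an unadjusted p under 0.05 (p between 0.14 and 0.24). Scn9a, prominent in peripheral and sympathetic neurons, was the most abundant at 92.7 ± 2.11 CPM in ADV-shFam172a and 89.3 ± 2.98 CPM in ADV-shCtrl (0.05 ± 0.041, adjusted p = 0.31). Scn8a, the main pore of the mature axon initial segment, averaged 67.9 ± 2.94 CPM in ADV-shFam172a and 70.7 ± 1.003 CPM in ADV-shCtrl (-0.06 ± 0.045, adjusted p = 0.36), and with the length and GC offset it was called lower (-0.14, adjusted p = 0.016). Scn3a, the pore typical of embryonic brain, averaged 33.3 ± 0.820 and 31.3 ± 0.797 CPM in the same order; its libraries did not overlap, but the test gave adjusted p = 0.26. Scn1a and Scn4a were at 2.26 mean CPM or less in either group.

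Scn3a, Scn1a and Scn9a sit in a gene cluster on chromosome 2, and expression within it was uneven. From 65457118 (Scn3a) to 66784914 (Scn7a) of GRCm38 lie Scn3a, Scn2a1, Scn1a, Scn9a and Scn7a in that order, with only Scn2a1 on the plus strand. Their summed counts were 3360, 3057, 199, 9417 and 37. Scn1a, between Scn2a1 and Scn9a, was at 0.125 to 0.212 FPKM in ADV-shFam172a and 0.151 to 0.269 FPKM in ADV-shCtrl, while Scn9a next to it was at 7.07 to 7.36 FPKM in ADV-shFam172a and 6.77 to 7.24 FPKM in ADV-shCtrl.

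The sodium channel beta subunit Scn3b, a membrane-spanning partner of the pores, rose. It had 67.1, 67.2 and 65.9 CPM in ADV-shFam172a libraries, against 58.0, 54.2 and 60.8 CPM in ADV-shCtrl libraries. The groups were apart, with a log2 fold change of 0.21 ± 0.047 (adjusted p = 4.4e-04).

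Among 6 calcium channel pores, 1 rose and 1 fell, a called share of 33.3% beside 36.1% of all genes tested. Cacna1c, the L-type pore that links depolarization to gene expression, had 86.1, 89.3 and 86.0 CPM in ADV-shFam172a libraries, against 79.5, 71.8 and 79.5 CPM in ADV-shCtrl libraries. It rose by 0.18 ± 0.044 (adjusted p = 0.0010), and with the length and GC offset the value was 0.075 with adjusted p = 0.17. Cacna1g, a T-type pore active near the resting potential, fell to 34.8, 37.1 and 36.6 CPM in ADV-shFam172a libraries, against 41.7, 43.4 and 41.1 CPM in ADV-shCtrl libraries. Its groups did not overlap (-0.22 ± 0.056, adjusted p = 0.0020), and after thinning all libraries to the depth of the smallest it was at -0.17 with adjusted p = 0.057.

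The other T-type pores were not called. Cacna1i averaged 48.3 ± 2.03 CPM in ADV-shFam172a and 45.3 ± 3.85 CPM in ADV-shCtrl (0.09 ± 0.056, adjusted p = 0.19), and without ADV-shCtrl replicate 1 it was called higher (0.17, adjusted p = 0.031). Cacna1h averaged 6.31 ± 0.315 and 5.00 ± 0.930 CPM in ADV-shFam172a and ADV-shCtrl, with no overlap (0.34 ± 0.15, adjusted p = 0.070). It was called higher without ADV-shCtrl replicate 1 (0.48, adjusted p = 0.023) and after thinning (0.55, adjusted p = 0.011). Differences between these genes in their response were not tested. Cacna1b, the N-type pore of transmitter release and the most abundant calcium channel pore per length, was at 107 ± 1.42 CPM in ADV-shFam172a and 103 ± 3.76 CPM in ADV-shCtrl (0.06 ± 0.038, adjusted p = 0.25). Cacna1a, the P/Q-type pore, was at 6.75 ± 0.705 and 5.94 ± 0.950 CPM in the same order (0.18 ± 0.14, adjusted p = 0.33).

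Of the cytoplasmic beta subunits, which release the pore from the endoplasmic reticulum, Cacnb1 was called and Cacnb3 was not. Cacnb1 had 35.5, 36.6 and 38.8 CPM in ADV-shFam172a libraries, against 34.7, 30.4 and 33.8 CPM in ADV-shCtrl libraries. The nearest libraries were close, and the rise of 0.17 ± 0.062 (adjusted p = 0.031) was lost with the length and GC offset (adjusted p = 0.16), after thinning (adjusted p = 0.37), and without ADV-shCtrl replicate 2 (adjusted p = 0.25) or ADV-shFam172a replicate 3 (adjusted p = 0.11). Cacnb3 averaged 36.6 ± 2.64 CPM in ADV-shFam172a and 35.7 ± 3.46 CPM in ADV-shCtrl (0.04 ± 0.065, adjusted p = 0.71). Its sign turned without ADV-shCtrl replicate 3 (-0.0083) or ADV-shFam172a replicate 1 (-0.0076).

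Of the 4 gamma subunit members, Cacng3 and Cacng4 were called higher, where 17.5% of all genes were. Cacng3 had 37.5, 38.5 and 36.5 CPM in ADV-shFam172a libraries, against 35.0, 27.7 and 27.0 CPM in ADV-shCtrl libraries (0.33 ± 0.069, adjusted p = 2.2e-04). ADV-shCtrl replicate 1 lay nearer to the ADV-shFam172a libraries than to the other ADV-shCtrl libraries. Cacng7 averaged 40.8 ± 2.02 CPM in ADV-shFam172a and 38.8 ± 2.11 CPM in ADV-shCtrl (0.08 ± 0.058, adjusted p = 0.32). Its neighbour on chromosome 7, Cacng8, averaged 3.19 ± 0.209 and 4.19 ± 0.156 CPM in the same order, with no overlap, and missed the threshold (-0.39 ± 0.17, adjusted p = 0.070); with the length and GC offset it was called lower (-0.47, adjusted p = 0.029).

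Cacng4 had the highest fold change of any member on very few reads, was over the filter limit in only 2 of 3 ADV-shCtrl libraries, and lost its call in 6 of 14 alternatives. Its counts were 24, 32 and 24 in ADV-shFam172a libraries, against 2, 8 and 10 in ADV-shCtrl libraries. Its scaled level was 1.11, 1.37 and 1.08 CPM in ADV-shFam172a and 0.171, 0.623 and 0.886 CPM in ADV-shCtrl, and ADV-shCtrl replicate 1 was by far the lowest. The log2 fold change was 1.08 ± 0.39 (adjusted p = 0.027), and without that library it was 0.67 with adjusted p = 0.22. The call was also lost without ADV-shCtrl replicate 2 (adjusted p = 0.069) or ADV-shFam172a replicate 2 (adjusted p = 0.080).

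Of the symbols that name no channel subunit, Kcnq1ot1 rose. It is the long antisense RNA that silences imprinted genes around Kcnq1 in cis. It had 20.6, 22.8 and 19.5 CPM in ADV-shFam172a libraries, against 15.2, 14.1 and 15.9 CPM in ADV-shCtrl libraries (0.48 ± 0.084, adjusted p = 1.5e-05). The groups were apart; with the length and GC offset the value was 0.24 (adjusted p = 0.033), and Kcnq1 itself had 4 counts over all libraries. Kcnrg (0.43 ± 0.40, adjusted p = 0.43) and Kcnmb4os2 (-0.09 ± 0.41, adjusted p = 0.90) did not pass.

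The starts of the rises with a RefSeq sequence and the largest fold changes at 2 mean CPM or more, Kcnq1ot1 and Kcnh6, are shown for comparison with Kcnab1, with the same letters in capitals.
Kcnq1ot1, chr7:143296498-143296797, minus strand: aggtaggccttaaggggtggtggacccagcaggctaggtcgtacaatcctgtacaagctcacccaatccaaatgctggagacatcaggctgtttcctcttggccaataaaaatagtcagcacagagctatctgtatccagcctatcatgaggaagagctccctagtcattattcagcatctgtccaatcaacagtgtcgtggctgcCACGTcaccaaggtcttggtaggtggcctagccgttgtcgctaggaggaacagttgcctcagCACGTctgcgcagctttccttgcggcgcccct
Kcnh6, chr11:106007898-106008197, plus strand: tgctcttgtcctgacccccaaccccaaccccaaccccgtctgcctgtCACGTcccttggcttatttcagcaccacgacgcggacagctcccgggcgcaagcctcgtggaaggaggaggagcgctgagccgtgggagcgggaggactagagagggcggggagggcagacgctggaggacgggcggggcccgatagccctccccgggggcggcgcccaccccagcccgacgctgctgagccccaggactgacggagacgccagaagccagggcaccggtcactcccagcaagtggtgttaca
Kcnq1ot1 holds ACGTG at 2 places and Kcnh6 at 1, in each case as the letters CACGT of the printed strand. RefSeq sequences were matched for 52 starts of 37 members. ACGTG was present on either strand in 11 of them, or 21.2%, against 19.6% of all 32851 starts in the table. The boxes TATAAA and GGGCGG, on either strand, were in 3.85% and 42.3% of the members' starts, against 13.6% and 35.7% of all starts. Median GC content was 59.7% in the members' starts and 52.7% in all. A match describes letters in this window and not binding.

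Shared exon sequence limits some values. Called members share exon bases with another annotated gene on the opposite strand in Kcnq1ot1 (460 bases), Kcnk3 (229), Kcnab1 (201), Kcnab3 (147) and Cacnb1 (80). The strand setting of the counting is not given in the sources used here, so reads of such partners cannot be told apart there.

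Genes that work beside these channels, from a list outside the symbol rule, were called at a share near the background. Of 71 listed, 59 were tested, 11 rose and 10 fell, 35.6% in all. Clcn3, a chloride and proton exchanger of endosomes, rose most, with 429, 414 and 423 CPM in ADV-shFam172a libraries, against 314, 314 and 299 CPM in ADV-shCtrl libraries (0.45 ± 0.029, adjusted p = 2.1e-15). Hcn2, a pacemaker channel opened by hyperpolarization, had 80.6, 86.4 and 85.8 CPM in ADV-shFam172a libraries, against 69.0, 66.8 and 63.7 CPM in ADV-shCtrl libraries (0.34 ± 0.045, adjusted p = 9.6e-08). Both sets of libraries were apart. Atp2b3, a plasma membrane calcium pump (0.32 ± 0.068, adjusted p = 2.6e-04), and Stac2, an adaptor of L-type channels (0.29 ± 0.064, adjusted p = 3.9e-04), rose as well. Orai3, a store-operated calcium channel, had 16.5, 14.5 and 14.7 CPM in ADV-shFam172a libraries, against 10.5, 14.9 and 11.1 CPM in ADV-shCtrl libraries. ADV-shCtrl replicate 2 lay above ADV-shFam172a replicates 2 and 3, so the groups overlapped. Orai3 was called higher at 0.31 ± 0.10 (adjusted p = 0.016). The call was lost without ADV-shCtrl replicates 1 or 3 or ADV-shFam172a replicate 1 (adjusted p = 0.13, 0.10 and 0.069). Without ADV-shCtrl replicate 2 the value was 0.49.

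The falls among partners included a sodium pump subunit and, of the genes of store-operated calcium entry, Stim1 and Orai1. Their relatives Stim2 (-0.08 ± 0.065, adjusted p = 0.35) and Orai2 (-0.04 ± 0.078, adjusted p = 0.71) did not pass, and Orai3 was called higher with overlapping groups. Atp1b1, a sodium pump beta subunit, had 7.46, 8.66 and 7.46 CPM in ADV-shFam172a libraries, against 11.2, 9.50 and 12.2 CPM in ADV-shCtrl libraries (-0.47 ± 0.12, adjusted p = 0.0012), with no overlap. Stim1, the calcium sensor of the endoplasmic reticulum, was at -0.19 ± 0.051 (adjusted p = 0.0036), and at adjusted p = 0.055 without ADV-shCtrl replicate 3. The channel it opens, Orai1, was at -0.37 ± 0.13 (adjusted p = 0.021), lost without ADV-shCtrl replicates 2 or 3 (adjusted p = 0.095 and 0.13) or ADV-shFam172a replicates 1 or 2 (adjusted p = 0.073 and 0.051). Ryr1, a calcium release channel, was at -0.33 ± 0.11 (adjusted p = 0.016), lost without ADV-shCtrl replicate 2 or ADV-shFam172a replicate 1 (adjusted p = 0.067 and 0.062). Lower partners numbered 6 without ADV-shCtrl replicate 2 or 3 and 5 without ADV-shFam172a replicate 1.

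Markers of muscle summed to less in ADV-shFam172a, though not every marker was lower. Their summed level over 12 genes was 21.4 to 24.3 CPM in ADV-shFam172a and 28.2 to 29.8 CPM in ADV-shCtrl. Of 5 tested muscle markers, 3 fell, where 18.6% of all genes tested fell. The 3 were Myl2, with 8 to 18 counts per library, Actn2 and Ryr1, which is also a listed partner. Tnnt2 (-0.31 ± 0.15, adjusted p = 0.096) and Acta1 (0.56 ± 0.43, adjusted p = 0.33) did not pass. The part of the muscle markers in the channel results was not tested. Glial markers summed to 28.5 to 33.7 CPM in ADV-shFam172a and 27.4 to 29.3 CPM in ADV-shCtrl, and fibroblast markers to 320 to 324 CPM in ADV-shFam172a and 289 to 319 CPM in ADV-shCtrl, mostly Fbln1. Macrophage markers summed to at most 1.53 CPM in any ADV-shFam172a library and 1.46 CPM in any ADV-shCtrl library, and the 1 tested, Cd68, was called higher (adjusted p = 0.048).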

How the data were processed

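The authors deposited raw counts per gene symbol, 1 column per library; the submitters' processing notes name HISAT2 2.0.5, HTSeq and build mm10, while annotation and strand setting are not given there. The 6 single-library tables held the same counts. The 5 rows that name no gene entered neither library sizes nor tests. Pairs in no gene took 16.4% to 16.6% of an ADV-shCtrl library and 17.2% to 17.9% of an ADV-shFam172a library. Pairs with several alignments took 9.58% to 9.71% and 9.99% to 10.4% in the same order. The groups did not overlap in either share, and what this did to the calls was not tested. Genes were filtered with filterByExpr, given TMM factors and put through robust glmQLFit and glmQLFTest of edgeR 4.0.16 in R 4.3.3, with group as sole term and Benjamini-Hochberg adjustment over 12820 genes; called means an adjusted p under 0.05, two-sided. FPKM used GENCODE M21 exon lengths (GRCm38), matched by symbol for all 56 members. Alternatives were DESeq2 1.42.0, its size factors, other filters, a test against a minimum fold change (glmTreat), thinning, an offset for exon length and GC content, a replicate block and each library left out. The fit was tested on simulated data. Named were called members at 2 mean CPM or more (up to 12 per direction), those called beyond 1.5-fold, the member highest per length in each role, those next to the count threshold, and up to 5 partners per direction; further members and genes are given to account for their families and were chosen after their values were seen. Counts cover all members, and some genes among them are not reported here by name. The members and lists were chosen with earlier results of these data known.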

Additional observations from a re-analysis of the deposited data

How the results depend on the processing

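Counts of called members and partners were recomputed under each alternative. Higher members numbered 1 in the test against a minimum fold change, and 9 to 15 with a library left out, where 14 were reported. Lower members numbered 2 with DESeq2, 1 after thinning, 1 in the minimum-fold test and 2 to 4 with a library left out, against 4 reported. In the minimum-fold test 1 partner was higher and 0 lower, and 266 genes in all were called; with a library left out, 8 to 12 partners were higher, 5 to 10 lower and 3681 to 4320 genes called. Under that 0 count the edgeR fit called 10 lower partners without the fold and DESeq2 called 8. DESeq2 called 10 higher members, all among the 14. Same-numbered libraries of the groups did not deviate together (correlations of -0.0054, -0.0038 and -0.0096 over 12820 genes). These values gave no sign that the numbers pair them. They cannot settle it, since counting noise of low genes also brings such correlations down. The replicate block gave 14 higher and 4 lower members, 11 higher and 10 lower partners and 4468 genes. With the length and GC offset it gave 11, 6, 8, 11 and 4562 in the same order. Signs turned for uncalled genes: Cacnb3 was at -0.025 with the offset, -0.023 with offset and block, and between -0.0083 and 0.12 with a library left out; Kcnj12 lay between -0.093 and 0.0058, and Kcnmb4os2 between -0.34 and 0.16, and at 0.22 after thinning. The cause was not tested. Depth limits members of few counts: 24 had under 5 mean CPM, of which 12.5% were called, near the 11.1% of all 2420 genes at that level.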
